A study of Homo sapiens with 18 samples.

Results

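CAMKK2, the subunits of the kinase AMPK, the other AMPK kinases CAMKK1 and STK11, and the CaMKII inhibitor CAMK2N1 were followed across androgen and antiandrogen treatment of LNCaP cells. All probe sets that carry these 10 gene names were taken, whatever their signal, which gave 31 of the 54613 probe sets that are not controls. Of these, 28 were found by the gene symbol in the deposited annotation. The other 3, those of CAMK2N1, are listed there under the older name CaMKIINalpha and were matched through their RefSeq accession. A probe set is a group of short probes that together report 1 transcript or a group of transcripts, and its level is given as a log2 signal. The members comprised 4 probe sets of CAMKK2, 2 of CAMKK1, 4 of STK11, 5 of PRKAA1, 2 of PRKAA2, 2 of PRKAB1, 3 of PRKAB2, 1 of PRKAG1, 5 of PRKAG2 and 3 of CAMK2N1. Of the 31, 24 had a mean log2 signal at or above 6.98, the median of all probe sets.

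LNCaP, an established androgen-responsive line, was derived from prostate carcinoma cells that had spread to a lymph node. In all groups the medium held 5% serum stripped of hormones, and treatment lasted 16 h. The groups were DHT (100 nM dihydrotestosterone, an androgen), DHT with enzalutamide (an antiandrogen) at 1 µM, DHT with enzalutamide at 10 µM, enzalutamide alone at 1 µM, enzalutamide alone at 10 µM, and the solvent DMSO as vehicle. Each of the 6 groups had 3 arrays. No label says that the arrays of a group came from separate cultures, so p-values measure the spread between arrays, which may be technical. The number of arrays limits the precision.

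AMPK is a kinase that senses a low energy state of the cell and slows lipid and protein synthesis. It is a trimer of a catalytic alpha subunit (PRKAA1 or PRKAA2), a scaffold beta subunit (PRKAB1 or PRKAB2) and a nucleotide-binding gamma subunit (PRKAG1, PRKAG2 or PRKAG3). Its alpha subunit is switched on by LKB1, the product of the tumour suppressor gene STK11, and by the calcium- and calmodulin-dependent kinases CAMKK2 and CAMKK1. CAMKK2 is known to respond to androgen in prostate cancer cells. CAMK2N1 encodes a small inhibitor of CaMKII, another calmodulin-dependent kinase.

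The 5 luminal markers of the line that are reported (KLK3, TMPRSS2, FOLH1, KRT8 and KRT18) all had a mean log2 signal between 10.1 and 14.6. Their summed signal was 67358 to 72316 on DHT arrays, against 38536 to 39598 on vehicle arrays. By limma, KLK3 (4.05 ± 0.24), TMPRSS2 (4.62 ± 0.26), KRT8 (1.04 ± 0.28) and KRT18 (0.80 ± 0.12) were higher with DHT. FOLH1, the brightest of them, was lower (-0.39 ± 0.09, adjusted p = 0.015). None of the 3 leukocyte markers reached the median. Of the 3 basal epithelium markers 2 did, KRT5 (7.86) and TP63 (7.22), and KRT14 (3.28) did not. Of the 3 fibroblast markers 2 did, and the summed signal of the list was 1178 to 1536 on DHT arrays, against 1974 to 2298 on vehicle arrays. Of that list COL1A1 passed the test (-0.78 ± 0.13, adjusted p = 0.00111), COL3A1 and DCN did not, and its part in the results was not tested. All arrays are labelled as the single line LNCaP, so the marker signals are not read as shares of cell types. In these bulk samples, fewer expressing cells and less RNA per cell cannot be told apart. The ratio of 3′ to 5′ ACTB signal, a sign of RNA integrity, was 4.50 for DHT replicate 2 and 6.04 for enzalutamide 1 µM replicate 2, against 1.42 to 1.80 for the other 16 arrays. Where a member's call changed with these high-ratio arrays left out, both values are given.

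The stretches before the start sites of CAMKK2 and PRKAA1 are shown because the called probe sets of these genes went opposite ways with DHT. Both are 250 bases from RefSeq on build GRCh38.p14 and end at the base before the start site. The first lies at chr12:121296710-121296959 and the second at chr5:40798178-40798427, both on the minus strand, written 5′ to 3′. Capitals mark GGGCGG, the GC box bound by SP factors, or its reverse CCGCCC.
CAMKK2: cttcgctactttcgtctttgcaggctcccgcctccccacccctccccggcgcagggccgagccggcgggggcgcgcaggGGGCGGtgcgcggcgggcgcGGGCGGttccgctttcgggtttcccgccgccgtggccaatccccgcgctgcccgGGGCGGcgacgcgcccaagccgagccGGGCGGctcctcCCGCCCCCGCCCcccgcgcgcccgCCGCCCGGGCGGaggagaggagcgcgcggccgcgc
PRKAA1: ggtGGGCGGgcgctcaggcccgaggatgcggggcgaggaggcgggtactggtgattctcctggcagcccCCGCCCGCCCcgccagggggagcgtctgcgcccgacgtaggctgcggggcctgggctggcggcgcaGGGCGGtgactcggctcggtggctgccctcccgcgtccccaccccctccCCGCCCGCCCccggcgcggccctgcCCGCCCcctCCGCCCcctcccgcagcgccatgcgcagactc
Each stretch held 8 matches, and some of those in the PRKAA1 stretch overlapped. Of 35116 promoters, 42.6% held at least 1 in the same window, and the share with 8 was not counted. The CAMKK2 and PRKAA1 stretches were 82.8% and 80.8% G or C. AGAACA and its reverse TGTTCT, a half-site of steroid receptors, had no match in either stretch, against 12.4% of promoters with one. Of the 10 genes, 9 had an entry in the promoter table, and CAMK2N1 had none. In the same window PRKAB2 and PRKAG1, not called for DHT, held 1 half-site match each, and no other member held any.

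Among called probe sets, DHT raised CAMKK2 on 1 of 4 and lowered PRKAA1 on 4 of 5 and CAMK2N1 on all 3. The PRKAA1 calls depended in part on scaling, as given below. A probe set is called higher or lower where limma's p-value, adjusted by Benjamini-Hochberg over all 54613 probe sets, is under 0.05. Against vehicle, DHT gave 1 member called higher (CAMKK2) and 7 called lower (4 of PRKAA1 and 3 of CAMK2N1). These 8 are 25.8% of the members, beside 5.72% of all probe sets called in this comparison. In a fit of only the probe sets at or above the median signal, 9 of 24 members were called, beside 3463 of 27307. The added call was PRKAB1 201834_at (-0.43, adjusted p = 0.036 by limma). Probe sets of 1 gene are not independent, and members were chosen with earlier results of these data known. All 3 arrays of DHT lay outside the range of the 3 vehicle arrays for 17 of 31 members, beside 20.8% of all probe sets. Of all probe sets, 2.6% were called higher and 3.12% lower. The median change was -0.34 over the members and -0.07 over all probe sets. At an unadjusted p under 0.05 there were 15 members, 3 of them higher. The share of all probe sets at this unadjusted threshold was not counted, here or below. Such counts therefore do not show that members differ from other probe sets.

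**Figure D1:**
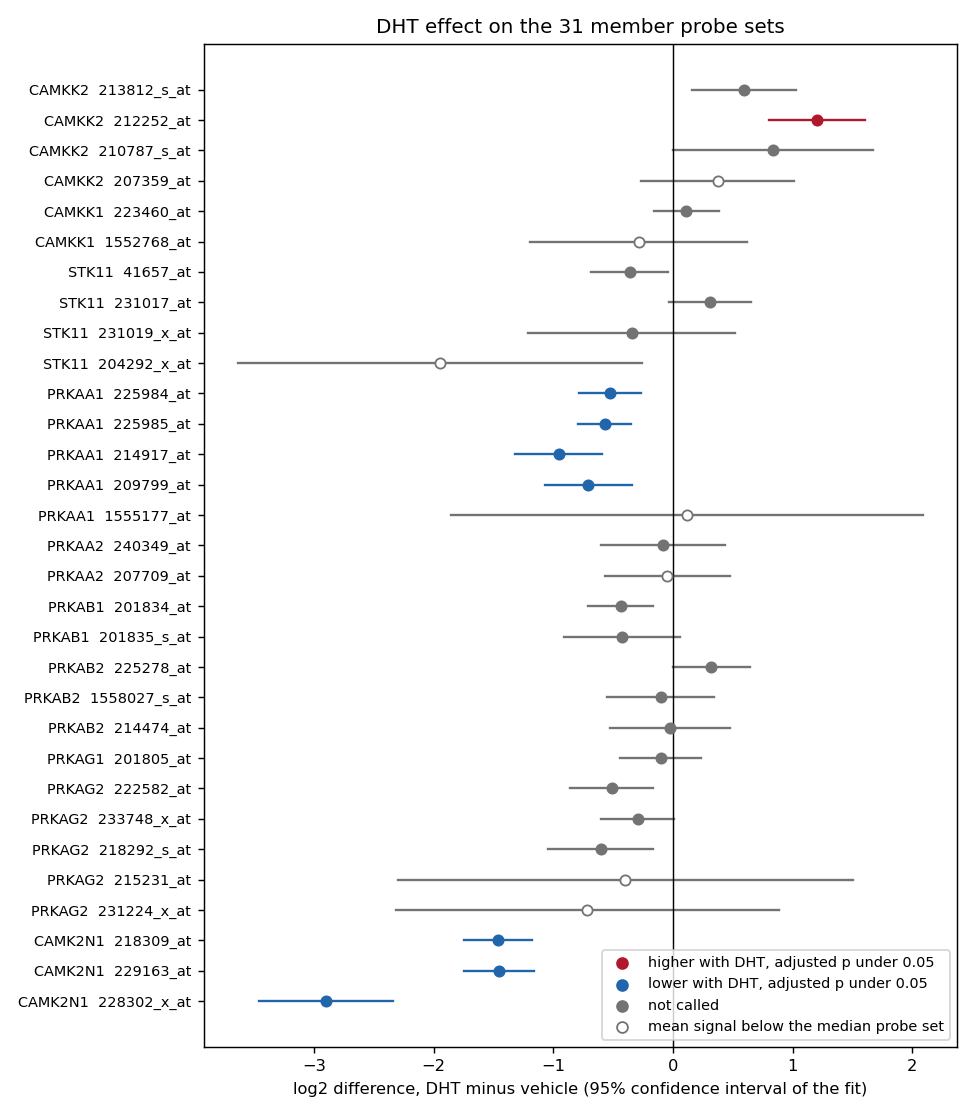
Log2 difference, DHT minus vehicle, for the 31 member probe sets, with the 95% confidence interval of the fit (n = 3 arrays per group). Open circles mark probe sets with a mean signal below the median. The called CAMKK2 probe set lies to the right of 0, and the called PRKAA1 and CAMK2N1 probe sets lie to the left.

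CAMKK2 responded most clearly on the probe set 212252_at. Its log2 signal was 10.87, 10.32 and 10.39 with DHT, against 9.26, 9.24 and 9.46 with vehicle. Every DHT array was above every vehicle array. The difference was 1.21 ± 0.19 (SE of the fit), a 2.31-fold higher signal, with an adjusted p of 0.000524. Beside enzalutamide 1 µM, DHT again raised it, with log2 signals of 10.08, 9.96 and 9.92 for both agents, against 8.90, 8.34 and 9.24 for the drug alone. That difference was 1.16 ± 0.19 (adjusted p = 0.0014), and these groups did not overlap.

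The group means of 212252_at had the order DHT (10.53 ± 0.30), DHT with 1 µM (9.99 ± 0.09), DHT with 10 µM (9.92 ± 0.09), vehicle (9.32 ± 0.12), enzalutamide 10 µM (9.22 ± 0.24) and enzalutamide 1 µM (8.83 ± 0.46; SD, n = 3 each). Each DHT group thus lay above each group without DHT. Neighbours in this order whose arrays overlapped were the pair of DHT groups with the drug, vehicle with enzalutamide 10 µM, and enzalutamide 10 µM with 1 µM. Adding enzalutamide to DHT gave -0.54 ± 0.19 at 1 µM (adjusted p = 0.265) and -0.60 ± 0.19 at 10 µM (adjusted p = 0.122). Neither was called, although no array with the drug reached an array with DHT alone. When the high-ratio arrays were left out, the 10 µM value was -0.71 ± 0.16 and was called (adjusted p = 0.0201).

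Beside enzalutamide 10 µM the DHT effect on 212252_at was 0.70 ± 0.19 (adjusted p = 0.139), from 9.91, 9.84 and 10.02 with both agents, against 9.47, 8.98 and 9.22 with the drug alone. These groups did not overlap, and the same difference was called without the high-ratio arrays (adjusted p = 0.0203). The difference between DHT effects, beside the drug minus without it, was -0.51 ± 0.27 at 10 µM (95% interval -1.08 to 0.06, adjusted p = 0.522). At 1 µM it was -0.05 ± 0.27 (-0.62 to 0.52, adjusted p = 0.958). The authors' deposited table marks 212252_at in the DHT comparison without the drug and beside each dose, and its log ratio of vehicle minus DHT is -1.21.

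**Figure D2:**
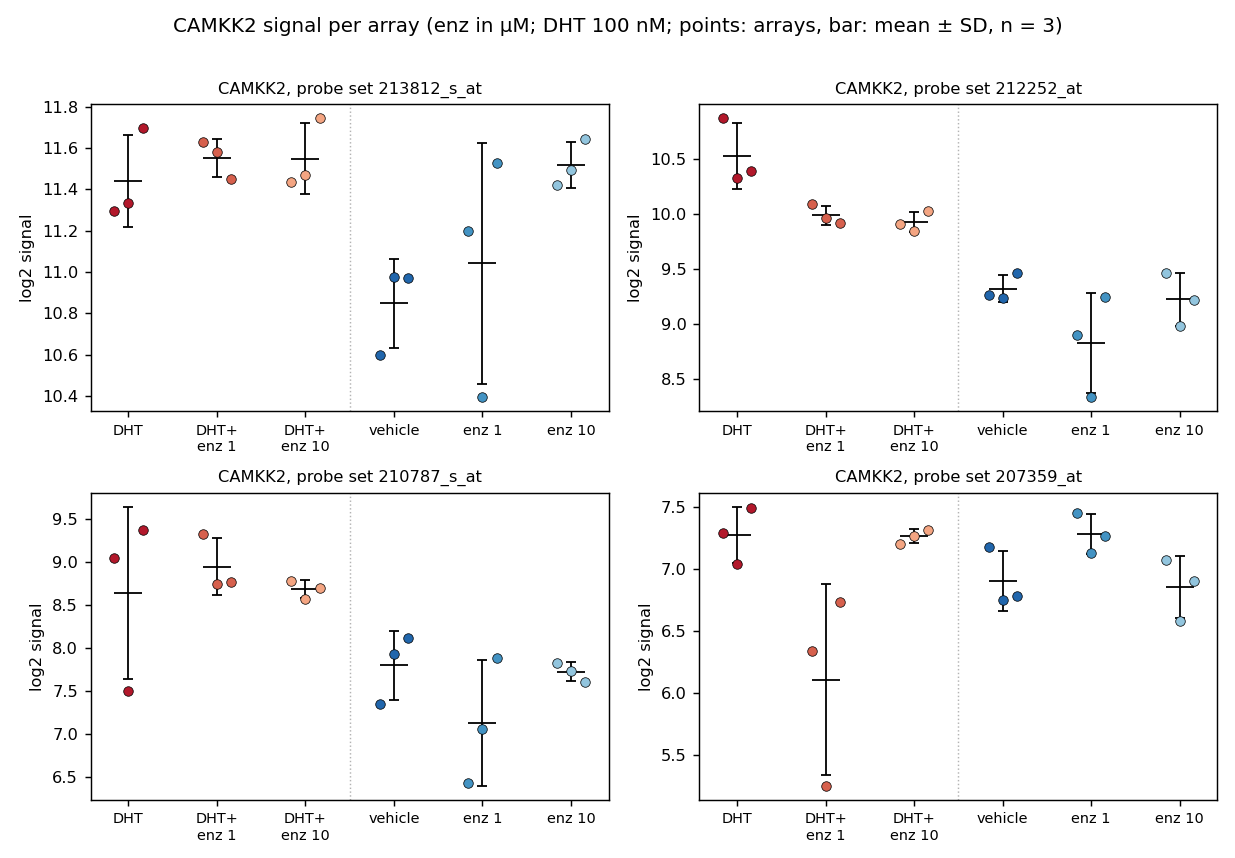
Log2 signal of the 4 CAMKK2 probe sets on each array, with the mean and SD of the 3 arrays. On 212252_at the 3 groups with DHT lie above the 3 groups without it, on 210787_s_at 1 DHT array lies with the groups without DHT, and 207359_at is low in DHT with enzalutamide 1 µM.

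The other CAMKK2 probe sets gave less certain DHT effects. The brightest, 213812_s_at, read 11.29, 11.33 and 11.70 with DHT, against 10.60, 10.98 and 10.97 with vehicle. The groups did not overlap, but the difference of 0.59 ± 0.21 was not called (adjusted p = 0.122). It was called at 0.65 ± 0.15 when the high-ratio arrays were left out (adjusted p = 0.012).

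This probe set read 11.42, 11.49 and 11.64 with enzalutamide 10 µM alone, above all vehicle arrays, a difference of 0.67 ± 0.21 (adjusted p = 0.241). It was called with those arrays left out (0.67 ± 0.13, adjusted p = 0.0336), while 212252_at gave -0.10 ± 0.19 for the same pair of groups (adjusted p = 0.929). On 213812_s_at the DHT effect beside 10 µM was 0.03 ± 0.21 (adjusted p = 0.988), against 0.70 on 212252_at. The difference between these probe sets was tested for DHT against vehicle only.

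The probe set 210787_s_at read 9.05, 7.51 and 9.37 with DHT, against 7.35, 7.94 and 8.12 with vehicle. The low DHT value is replicate 2, an array of high ACTB ratio. With all 18 arrays the difference was 0.84 ± 0.40 (adjusted p = 0.308), and without the high-ratio arrays it was 1.41 ± 0.32 and was called (adjusted p = 0.0137). Beside enzalutamide 1 µM, DHT raised this probe set by 1.81 ± 0.40 (adjusted p = 0.0118; 0.055 in a fit of those groups alone).

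The dim probe set 207359_at gave 0.37 ± 0.30 for DHT against vehicle (adjusted p = 0.639). With DHT and enzalutamide 1 µM it read 6.34, 5.25 and 6.73, against 7.46, 7.13 and 7.26 with the drug alone, and it fell by 1.18 on the log2 scale (adjusted p = 0.0285). Its mean over all arrays, 6.95, is below the median of all probe sets. The call was lost with each array centred on its median (-1.01, adjusted p = 0.0593), after quantile normalization (-1.01, adjusted p = 0.0663), and in 4 of the 18 fits that left out 1 array (highest adjusted p 0.11).

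Set against 213812_s_at within each array, the DHT change of 212252_at was larger by 0.61 (95% interval 0.14 to 1.09, adjusted p = 0.442). That of 210787_s_at differed by 0.24 (-0.63 to 1.11, adjusted p = 0.905) and that of 207359_at by -0.22 (-1.01 to 0.56, adjusted p = 0.904). None of the 21 such differences within the member genes was called, beside 0.402% of 24392 differences over all genes. At an unadjusted p under 0.05 there were 3, of CAMKK2 212252_at, STK11 231017_at and CAMK2N1 228302_x_at, and the share over all genes at that threshold was not counted. The intervals leave room for unequal changes of the CAMKK2 probe sets.

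Across the 18 arrays, which share their treatment groups, 212252_at correlated with 210787_s_at at r = 0.78. Against 213812_s_at these probe sets had r = 0.55 and r = 0.57. The dim 207359_at had r of -0.15, -0.03 and -0.22 with the 3 brighter ones. The genes most like 213812_s_at over the 18 arrays, of 12755 genes, were TMEM52 (r = 0.88), EIPR1 (r = 0.86), POLE3 (r = 0.86), NME6 (r = 0.85) and CAP1 (r = 0.85). These correlations describe the pattern and carry no test.

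The other AMPK kinases were not called for DHT. CAMKK1, the paralogue of CAMKK2, gave 0.11 ± 0.13 on its bright probe set 223460_at (adjusted p = 0.772), with an interval of -0.16 to 0.39. Its dim probe set 1552768_at gave -0.29 ± 0.43 (adjusted p = 0.838). For STK11 the 3 bright probe sets went both ways, with -0.36 ± 0.15 on 41657_at (adjusted p = 0.228), 0.31 ± 0.16 on 231017_at (adjusted p = 0.378) and -0.34 ± 0.41 on 231019_x_at (adjusted p = 0.781). The dim 204292_x_at gave -1.95 ± 0.80 (adjusted p = 0.215). No probe set of CAMKK1 or STK11 was called in any of the 10 comparisons.

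PRKAA1, the alpha-1 catalytic subunit, fell with DHT on all 4 of its bright probe sets. On 214917_at the log2 signals were 9.43, 8.54 and 8.93 with DHT, against 10.11, 9.73 and 9.93 with vehicle, a difference of -0.95 ± 0.17 (0.516-fold, adjusted p = 0.00179). On 225985_at they were 9.77, 10.05 and 9.79 with DHT, against 10.39, 10.42 and 10.51 with vehicle (-0.57 ± 0.10, adjusted p = 0.00199). No DHT array reached a vehicle array on either probe set.

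The brightest, 225984_at, read 11.99, 11.91 and 11.90 with DHT, against 12.46, 12.26 and 12.67 with vehicle (-0.53 ± 0.12, adjusted p = 0.0136). On 209799_at the values were 8.57, 8.28 and 8.78 with DHT, against 8.90, 9.39 and 9.45 with vehicle (-0.71 ± 0.17, adjusted p = 0.0183). The groups again did not overlap. The dim 1555177_at, with a mean of 4.48, gave 0.12 ± 0.93 and was not called (adjusted p = 0.976).

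These PRKAA1 calls depend in part on scaling. Centring each array on its median moved all DHT changes up by 0.10, and 3 of the 4 calls were lost, with -0.43 on 225984_at (adjusted p = 0.202), -0.48 on 225985_at (adjusted p = 0.118) and -0.61 on 209799_at (adjusted p = 0.075). The call of 214917_at held (-0.86, adjusted p = 0.00396). Leaving out the high-ratio arrays gave -0.58 on 209799_at (adjusted p = 0.0595), and the other 3 were still called. In a fit of the DHT and vehicle arrays alone, 225984_at (adjusted p = 0.0522), 214917_at (adjusted p = 0.0774) and 209799_at (adjusted p = 0.13) were not called, and 225985_at was.

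**Figure D3:**
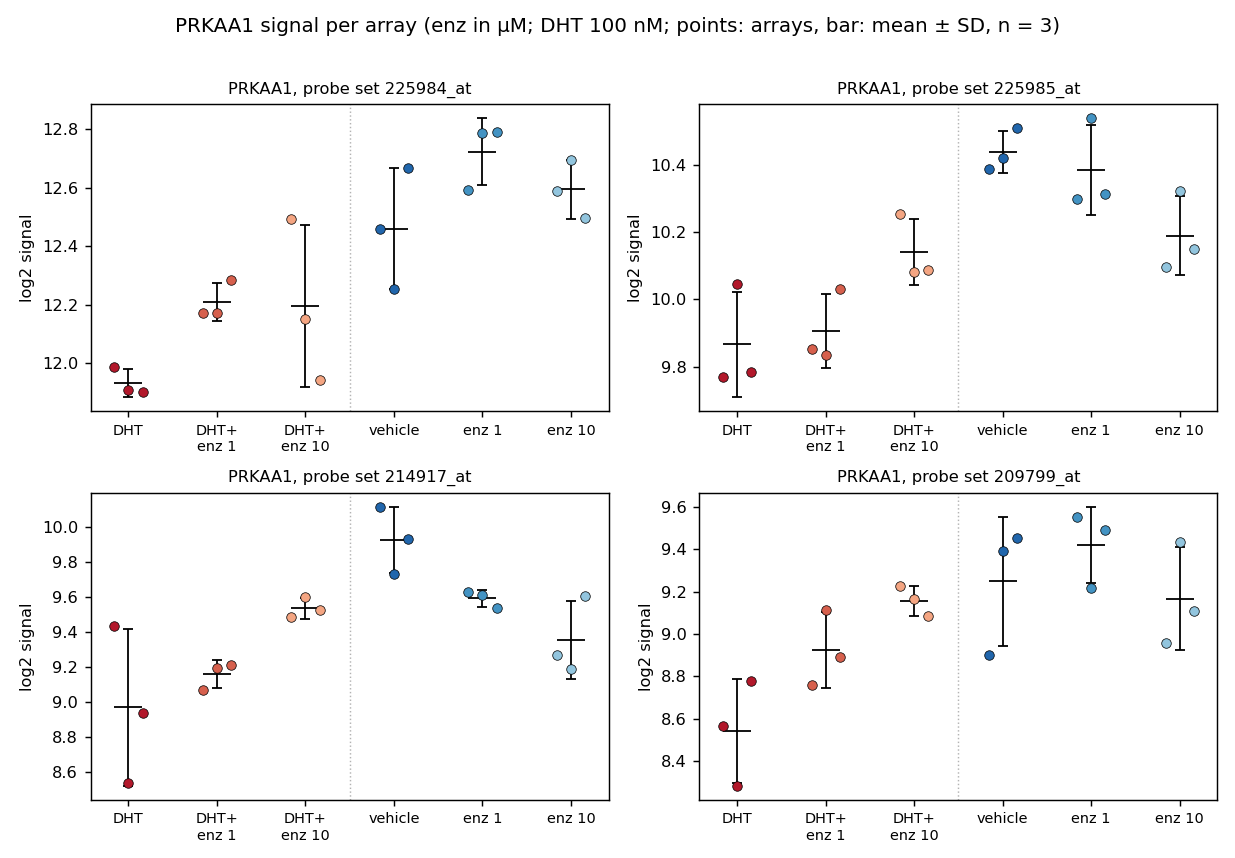
Log2 signal of the 4 bright PRKAA1 probe sets on each array, with the mean and SD of the 3 arrays. DHT alone is the lowest group mean on all 4 probe sets, and its arrays do not overlap those of vehicle.

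Beside enzalutamide 1 µM, DHT lowered PRKAA1 on 225984_at (-0.51 ± 0.12, adjusted p = 0.0197) and 225985_at (-0.48 ± 0.10, adjusted p = 0.012). The first of these was not called without the high-ratio arrays (adjusted p = 0.0574), and neither was called after centring on the median or in a fit of those groups alone. Beside enzalutamide 10 µM, 214917_at read 9.48, 9.60 and 9.52 with both agents, against 9.27, 9.19 and 9.61 with the drug alone, and these arrays overlapped. The DHT effect there was 0.18 ± 0.17 (adjusted p = 0.851), against -0.95 without the drug. The difference between these effects was 1.13 ± 0.24 and was called (adjusted p = 0.0276), but not after centring (1.04, adjusted p = 0.0534). The same difference on the other bright PRKAA1 probe sets was 0.13 ± 0.17 on 225984_at, 0.52 ± 0.15 on 225985_at and 0.70 ± 0.24 on 209799_at, with adjusted p-values of 0.862, 0.116 and 0.238. That of 225985_at was called as well with the high-ratio arrays left out (0.61 ± 0.13, adjusted p = 0.0203). With enzalutamide 10 µM alone, 214917_at lay below all vehicle arrays (-0.57 ± 0.17, adjusted p = 0.231).

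PRKAA2, the alpha-2 subunit, was dimmer than the median on 1 of its 2 probe sets. Its DHT changes were -0.08 ± 0.25 on 240349_at (adjusted p = 0.929) and -0.05 ± 0.25 on 207709_at (adjusted p = 0.964). Their intervals ran from -0.60 to 0.43 and from -0.57 to 0.47.

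The beta subunits were not called for DHT against vehicle. PRKAB1 on 201834_at read 9.11, 8.77 and 9.06 with DHT, against 9.38, 9.44 and 9.42 with vehicle. The groups did not overlap, and the difference was -0.43 ± 0.13 (adjusted p = 0.0599). With enzalutamide 1 µM alone it read 8.79, 8.62 and 8.99, and it fell by 0.61 on the log2 scale against vehicle (adjusted p = 0.0381). This was the single member called for enzalutamide 1 µM against vehicle, beside 0.802% of all probe sets. The groups did not overlap for 6 members, beside 18.8% of all.

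With DHT and enzalutamide 1 µM together, PRKAB1 201834_at read 9.06, 9.17 and 9.36, all above the arrays with the drug alone. The DHT effect was 0.39 ± 0.13 beside the drug, against -0.43 ± 0.13 without it, and their difference of 0.83 ± 0.18 was called (adjusted p = 0.0392). Neither call held without the high-ratio arrays, with -0.52 for the drug alone (adjusted p = 0.0711) and 0.63 for the difference (adjusted p = 0.106). With 1 array left out, the call for the drug alone was lost in 9 of 18 fits and that of the difference in 12. After centring, the drug alone was not called (-0.63, adjusted p = 0.0696), while the DHT effect beside it was (0.56, adjusted p = 0.0187). The other probe set, 201835_s_at, gave -0.15 ± 0.23 for the drug alone (adjusted p = 0.83).

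PRKAB2, the other beta subunit, gave 0.32 ± 0.15 on 225278_at, -0.10 ± 0.21 on 1558027_s_at and -0.03 ± 0.24 on 214474_at for DHT against vehicle. Their adjusted p-values were 0.314, 0.891 and 0.979.

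Neither gamma subunit was called in any comparison. PRKAG1, with 1 bright probe set (201805_at), gave -0.10 ± 0.16 for DHT (adjusted p = 0.851, interval -0.44 to 0.24). PRKAG2 was lower with DHT on its 3 bright probe sets without overlap of the arrays. On 222582_at it read 8.61, 8.75 and 9.08 with DHT, against 9.16, 9.55 and 9.27 with vehicle (-0.51 ± 0.16, adjusted p = 0.0868). The differences were -0.29 ± 0.14 on 233748_x_at (adjusted p = 0.338) and -0.60 ± 0.21 on 218292_s_at (adjusted p = 0.117). The 2 dim probe sets, 215231_at and 231224_x_at, had SEs of 0.90 and 0.76.

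CAMK2N1, the CaMKII inhibitor, had the lowest adjusted p-values of the members for DHT against vehicle. On 218309_at the log2 signals were 12.18, 12.81 and 12.59 with DHT, against 13.98, 14.05 and 13.92 with vehicle, a difference of -1.46 ± 0.13 (0.364-fold, adjusted p = 1.34e-06). On 229163_at they were 11.45, 11.71 and 12.16 with DHT, against 13.24, 13.07 and 13.37 with vehicle (-1.45 ± 0.14, 0.365-fold, adjusted p = 1.86e-06). Both probe sets thus gave nearly the same change, and within arrays their changes differed by 0.01 (interval -0.41 to 0.43).

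The third probe set, 228302_x_at, read 8.65, 7.87 and 8.83 with DHT, against 11.14, 11.56 and 11.34 with vehicle. The difference was -2.90 ± 0.27 (0.134-fold, adjusted p = 1.27e-06). No DHT array reached a vehicle array on any of the 3. By the naming of such probe sets, the letter x marks one whose probes can also match other transcripts. Its change differed from that of 218309_at by -1.44 (interval -2.29 to -0.59, adjusted p = 0.212).

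**Figure D4:**
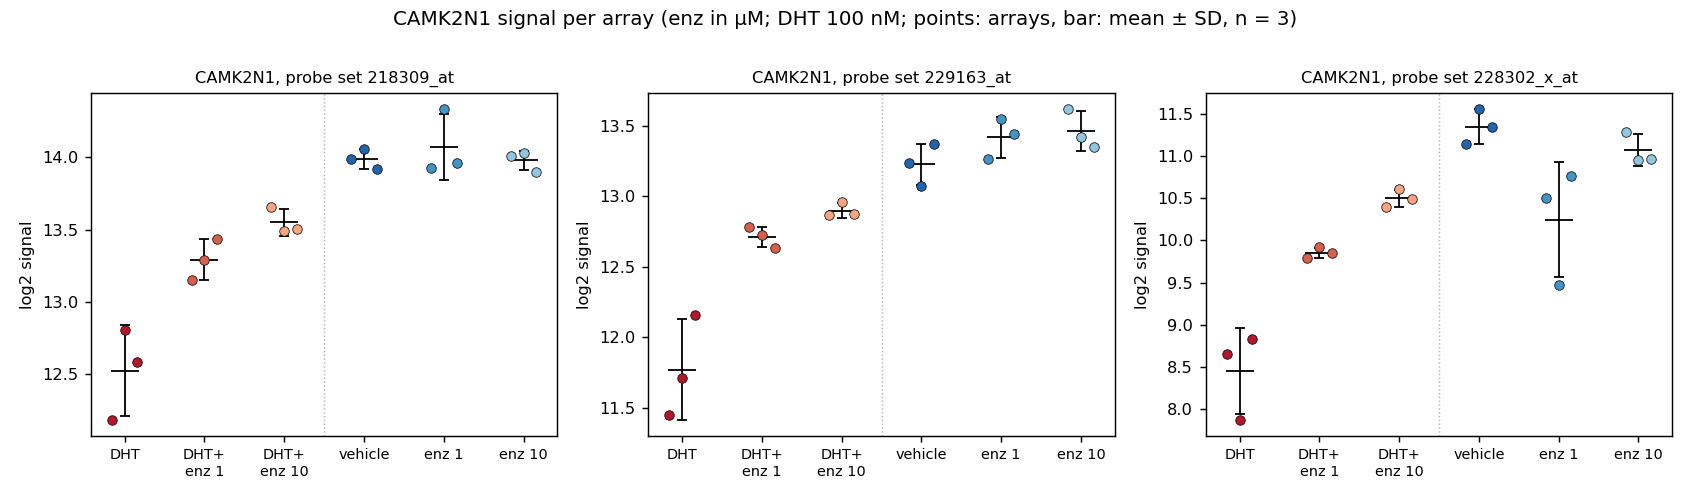
Log2 signal of the 3 CAMK2N1 probe sets on each array, with the mean and SD of the 3 arrays. DHT alone is lowest on all 3, DHT with 1 µM and with 10 µM enzalutamide lie above it, and both lie below vehicle.

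Enzalutamide raised CAMK2N1 in the presence of DHT. All 3 probe sets were called higher with DHT and 1 µM than with DHT alone, and they were the only members called, 3 of 31 beside 1.09% of all probe sets. On 218309_at the log2 signals with both agents were 13.15, 13.29 and 13.43, against 12.18, 12.81 and 12.59 with DHT alone (0.77 ± 0.13, adjusted p = 0.00577). The changes were 0.94 ± 0.14 on 229163_at (adjusted p = 0.00118) and 1.40 ± 0.27 on 228302_x_at (adjusted p = 0.0112). After centring, 218309_at was not called (0.83, adjusted p = 0.0551), and in a fit of the compared groups alone none of the 3 was (adjusted p between 0.0691 and 0.14). The groups did not overlap on any of the 3, as for 13 of 31 members and 16.6% of all probe sets.

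With 10 µM the same 3 members were called higher than with DHT alone, and again no other, beside 2.69% of all probe sets. On 218309_at the signals were 13.65, 13.49 and 13.50 with both agents, a difference of 1.02 ± 0.13 (2.03-fold, adjusted p = 0.000185). On 229163_at they were 12.87, 12.96 and 12.87 (1.13 ± 0.14, adjusted p = 8.94e-05), and on 228302_x_at 10.40, 10.61 and 10.49 (2.05 ± 0.27, adjusted p = 0.000166). No array with both agents reached down to one with DHT alone. Such a gap was seen for 12 of 31 members and 19.3% of all probe sets.

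The step to 10 µM from 1 µM beside DHT added 0.26 ± 0.13, 0.19 ± 0.14 and 0.65 ± 0.27 on 218309_at, 229163_at and 228302_x_at. Arrays of the higher dose lay above those of the lower on all 3, but none was called, with adjusted p-values of 0.877, 0.921 and 0.812. No member was called for this step by limma, beside 0.0128% of all probe sets, and 4 members had an unadjusted p under 0.05. Arrays of the 2 doses did not overlap for 8 of 31 members and 14.6% of all probe sets.

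DHT still lowered CAMK2N1 beside enzalutamide 1 µM, with -0.78 ± 0.13 on 218309_at (adjusted p = 0.00213) and -0.70 ± 0.14 on 229163_at (adjusted p = 0.00559). The first of these was not called after centring on the median (-0.61, adjusted p = 0.0604). With CAMKK2 on 3 probe sets (2 higher and the dim one lower) and PRKAA1 on 2, these made 7 members called, 22.6%, beside 6% of all probe sets. For 14 members the groups did not overlap, beside 25.2% of all. On 228302_x_at the effect beside 1 µM was -0.39 ± 0.27 (adjusted p = 0.421). There the drug alone read 10.50, 9.47 and 10.77, below all vehicle arrays (-1.10 ± 0.27, adjusted p = 0.0592). The value of 9.47 is replicate 2, of high ACTB ratio, and without it and DHT replicate 2 the drug alone lowered it (-0.71 ± 0.13, adjusted p = 0.0323), as did DHT beside the drug (-0.78 ± 0.13, adjusted p = 0.00221).

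Beside enzalutamide 10 µM the DHT effects on CAMK2N1 were -0.43 ± 0.13, -0.56 ± 0.14 and -0.57 ± 0.27, in the same order of probe sets. The arrays did not overlap, and the adjusted p-values were 0.224, 0.0872 and 0.516. No member was called in this comparison by limma, beside 0.615% of all probe sets, and 8 had an unadjusted p under 0.05. For 9 members the arrays did not overlap, beside 17.4% of all. With the high-ratio arrays left out, 3 members were called, CAMKK2 212252_at higher (0.70) and CAMK2N1 218309_at (-0.43) and 228302_x_at (-0.57) lower. In that fit 775 of all 54613 probe sets were called, against 336 with all arrays.

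The DHT effect on CAMK2N1 was smaller beside 10 µM than without the drug on all 3 probe sets by the test of the difference. The differences were 1.03 ± 0.19 on 218309_at (adjusted p = 0.00917), 0.89 ± 0.19 on 229163_at (adjusted p = 0.0307) and 2.33 ± 0.38 on 228302_x_at (adjusted p = 0.00302). With PRKAA1 214917_at, 4 members were called, beside 1.23% of all probe sets. At 1 µM the differences were 0.68 ± 0.19 (adjusted p = 0.0981), 0.75 ± 0.19 (adjusted p = 0.0776) and 2.50 ± 0.38 (adjusted p = 0.00377). That of 218309_at was called without the high-ratio arrays (0.95 ± 0.15, adjusted p = 0.00762). With PRKAB1 201834_at this gave 2 members called, beside 0.976% of all probe sets. After centring on the median, 218309_at and 229163_at were no longer called at 10 µM (0.94, adjusted p = 0.176, and 0.79, adjusted p = 0.114).

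Enzalutamide 10 µM alone gave no called member against vehicle by limma, beside 0.125% of all probe sets, and 5 had an unadjusted p under 0.05. For 8 members the arrays did not overlap, beside 18.6% of all. On CAMK2N1 218309_at it read 14.01, 14.03 and 13.90, against 13.98, 14.05 and 13.92 with vehicle (-0.01 ± 0.13, interval -0.29 to 0.28). These groups overlapped. Among the arrays of low ACTB ratio, CAMKK2 213812_s_at was the 1 member called, as given above. In that fit 328 of all probe sets were called, against 68 with all arrays.

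The genes most like CAMK2N1 218309_at over the 18 arrays were GASK1B (r = 0.98), TMEM144 (r = 0.98), PCDH11Y (r = 0.98), OSR2 (r = 0.98) and SERPINI1 (r = 0.97). The other probe sets of CAMK2N1 had r = 0.95 (229163_at) and r = 0.78 (228302_x_at) with it.

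Around these genes, 4 lists were read through 1 probe set a gene, the one of highest mean. Of 19178 genes so read, DHT against vehicle called 4.25% higher and 4.28% lower. AMPK substrates, the proteins it phosphorylates, had 4 of 19 genes higher and none lower, with a list median of 0.07 beside -0.04 for all genes. They were TSC2 (1.29 ± 0.14), a brake on mTORC1; TBC1D1 (1.02 ± 0.13) and TBC1D4 (0.72 ± 0.12), which control glucose transporter traffic; and ACACA (0.63 ± 0.12), which makes malonyl-CoA. Their adjusted p-values ran between 1.3e-05 and 0.00267.

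The kinases related to AMPK that LKB1 phosphorylates had none of 11 measured genes higher and 5 lower. These were SNRK (-1.70 ± 0.08), MARK2 (-0.81 ± 0.23), MARK1 (-0.69 ± 0.15), NUAK1 (-0.63 ± 0.18) and SIK1 (-0.47 ± 0.11), and the list median was -0.26. SNRK averaged 10.14 with DHT and 11.84 with vehicle (adjusted p = 5.16e-10). Without the high-ratio arrays, and likewise after centring on the median, only SNRK and MARK1 of this list were called, and after quantile normalization SIK1 as well.

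Of calmodulin and the calmodulin kinases, 4 of 17 genes were lower and none higher, with a median of -0.20. Without the high-ratio arrays 5 were lower, CAMK2D among them, and after centring 3 were, without CAMK2B. Quantile normalization called 4, with CALM2 in place of CAMK2B. CAMK1D (-1.34 ± 0.28) belongs to the CaM kinase I family, MYLK (-1.24 ± 0.12) is a myosin light chain kinase, DAPK1 (-0.90 ± 0.15) is a death-associated kinase and CAMK2B (-0.42 ± 0.11) is a CaMKII subunit. Among AMPK partners and regulators, 2 of 14 measured genes were higher and 1 lower. CAB39L (0.98 ± 0.16), a relative of the LKB1 partner MO25, and PPM1A (0.51 ± 0.11), a phosphatase, were higher, and SESN1 (-0.52 ± 0.14), a sestrin, was lower. With the high-ratio arrays left out, and likewise after quantile normalization, this list had 2 higher and 3 lower (SESN1, SESN3 and FNIP1), and after centring it had 2 higher and none lower.

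**Figure D5:**
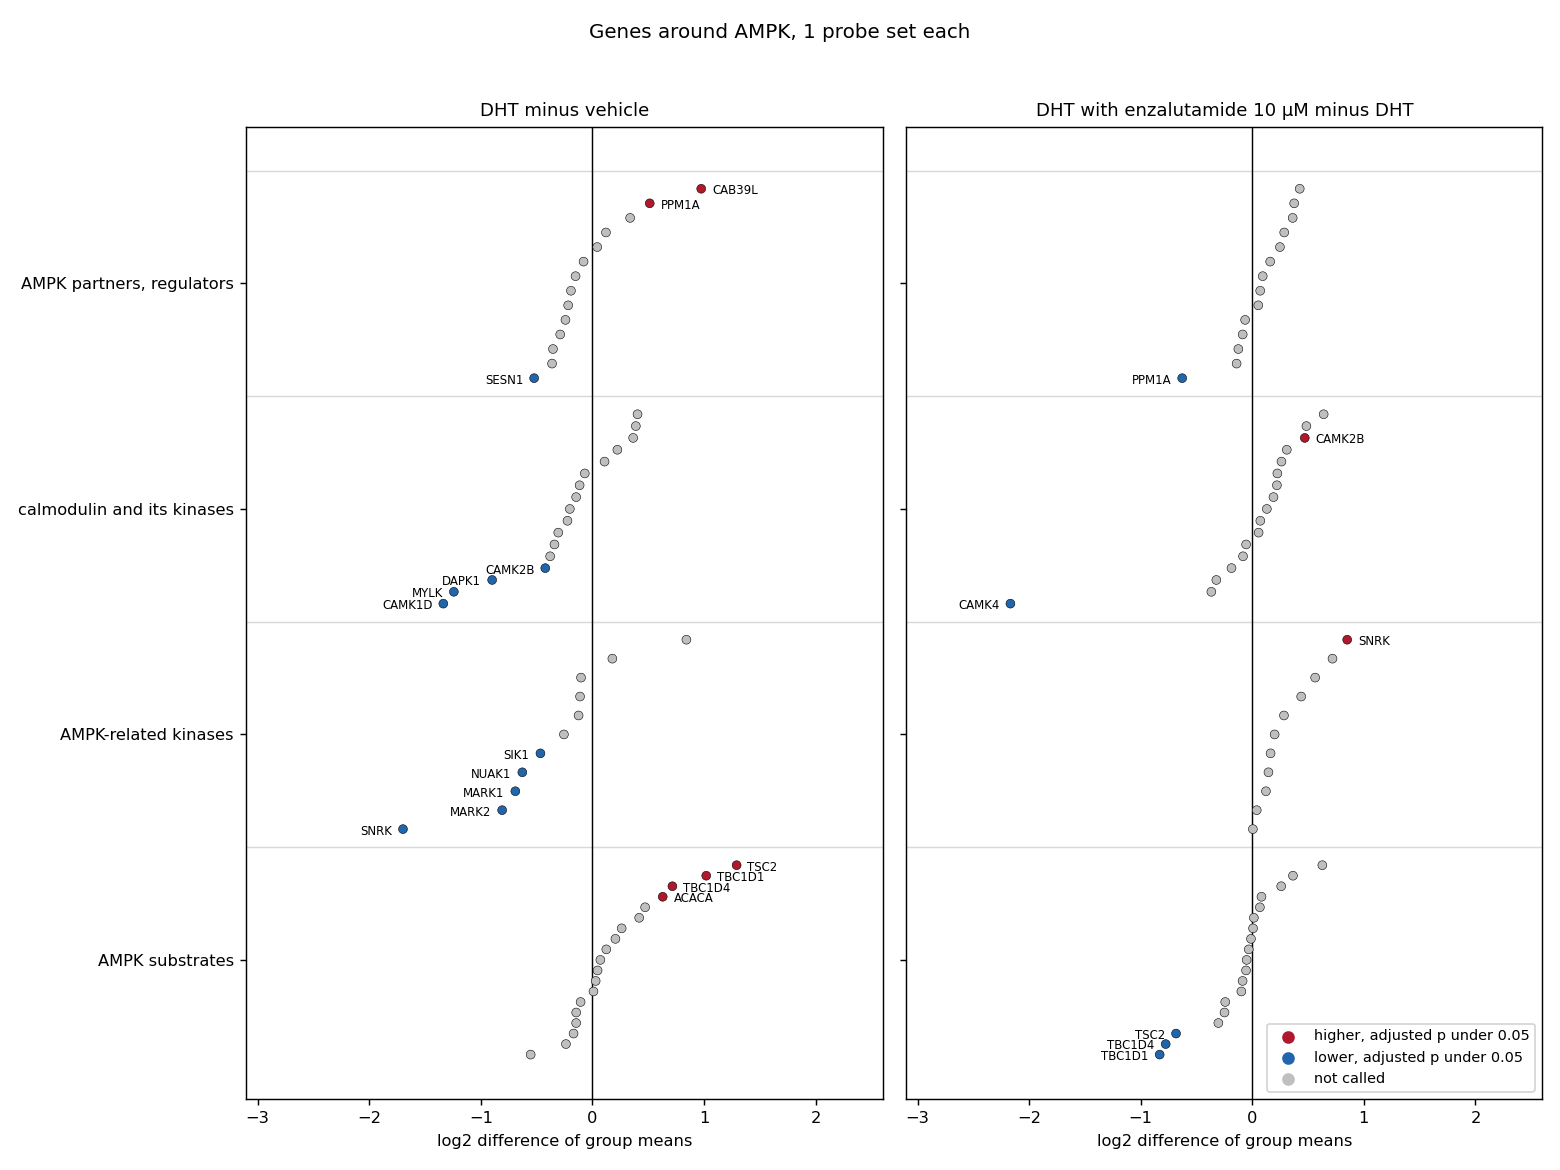
Log2 differences of the genes in 4 lists around AMPK, DHT minus vehicle on the left and DHT with enzalutamide 10 µM minus DHT on the right, 1 probe set per gene. The 4 called AMPK substrates lie right of 0 on the left panel, and 3 of them are called left of 0 on the right panel.

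With enzalutamide 10 µM beside DHT, 3 AMPK substrates were lower than with DHT alone, beside 2.29% of all genes called lower. These were TBC1D1 (-0.83 ± 0.13), TBC1D4 (-0.78 ± 0.12) and TSC2 (-0.68 ± 0.14), while ACACA gave -0.25 ± 0.12 (adjusted p = 0.364). PPM1A was lower as well (-0.63 ± 0.11), and so was the dim CAMK4 (-2.17 ± 0.48), a CaM kinase. SNRK (0.85 ± 0.08) and CAMK2B (0.47 ± 0.11) were higher, beside 1.67% of all genes. CAMK2B was not called after centring or quantile normalization, and SESN3 was called higher after quantile normalization and without the high-ratio arrays. Both comparisons share the DHT arrays, so their values are set side by side and not as independent results.

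Of the 3717 probe sets in the authors' deposited table, 8 are members, and 7 of these are among the 8 called here for DHT against vehicle. The authors' deposited table has PRKAB1 201834_at, which was not called here, and lacks PRKAA1 209799_at. Each of its 8 members is marked there for DHT and vehicle. For DHT with 1 µM against DHT it marks 2 of them, CAMK2N1 228302_x_at and PRKAA1 225984_at, the latter not called here. CAMK2N1 218309_at and 229163_at, called here, are not marked in that comparison. For DHT with 10 µM against DHT it marks the 3 of CAMK2N1. The authors' deposited table marks 6 for DHT beside 1 µM against 1 µM alone. It marks 4 for DHT beside 10 µM against 10 µM alone, where no member was called here. It marks none for either dose of enzalutamide alone.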

How the data were processed

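Labelled RNA was hybridised to 18 single-colour arrays, per the labels' protocols, which do not name the array model. Signals were made with MAS5, per the submitters' processing notes. The deposited array values are log2 signals, per the file headers. Their 2% trimmed mean signal is 500.1 on every array, so that arrays share a scale. The authors' deposited table also gives p-values and log2 ratios between groups, used only for its marks and 1 ratio. 

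Values were used as deposited. Genes were named from the annotation, updated with RefSeq names of GRCh38.p14. No value of 1 probe set is set against the level of another. limma 3.58.1 in R 4.3.3 (eBayes with an intensity trend, two-sided) fitted the 6 group means to all 54613 probe sets, with 12 residual degrees of freedom, and Benjamini-Hochberg adjustment ran over all of them in each of 10 comparisons. Changes within a gene (other probe set minus the brightest) were fitted in the same way without the trend. The method was tested on simulated data. Errors after ± are SEs of the fit for differences and SDs for group means. Genes of the lists were named when called for DHT, or for 10 µM beside DHT, and like genes were the 5 of highest r. Members and lists were chosen with earlier results of these data known. Some genes of the lists are not reported here. Arrays were not paired by replicate number in the main fit. Between groups, deviations from group means of same-numbered arrays correlated with r between -0.18 and 0.59 (median 0.02). For arrays of different number r lay between -0.52 and 0.39 (median -0.01). These values cannot exclude that some arrays were handled in numbered sets. Alternatives were brightness filters, median centring, quantile normalization, an added signal of 32, no trend, fewer groups, the replicate block and left-out arrays.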

Additional observations from a re-analysis of the deposited data

Results flagged for a closer look

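For 6 of the member results the effect of DHT differed with and without enzalutamide, by the test of the difference itself in limma (effect beside the drug minus effect without it, adjusted over all probe sets). At 1 µM these were CAMK2N1 228302_x_at (2.50 ± 0.38, adjusted p = 0.00377) and PRKAB1 201834_at (0.83 ± 0.18, adjusted p = 0.0392). At 10 µM they were CAMK2N1 228302_x_at (2.33 ± 0.38, adjusted p = 0.00302), CAMK2N1 218309_at (1.03 ± 0.19, adjusted p = 0.00917), PRKAA1 214917_at (1.13 ± 0.24, adjusted p = 0.0276) and CAMK2N1 229163_at (0.89 ± 0.19, adjusted p = 0.0307). The PRKAB1 call was lost without the 2 arrays of high ACTB ratio (0.63, adjusted p = 0.106). It was also lost in 12 of the 18 fits that left out 1 array (highest adjusted p 0.111). The calls of CAMK2N1 229163_at and PRKAA1 214917_at were lost in 9 and 8 of the 18 fits that left out 1 array, with highest adjusted p-values of 0.0943 and 0.0867. Both were also lost after centring (0.114 and 0.0534), with no intensity trend (0.126 and 0.0847) and in a fit of the compared groups alone (0.0666 and 0.0767). That of 218309_at was lost after centring (0.176) and with no trend (0.0581). PRKAB1 201834_at was not called with no trend (0.0972) or in a fit of the compared groups alone (0.109).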

How the results depend on the processing

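In this paragraph "all" gives the calls over every probe set of the same fit. Of 31 members, 8 were called for DHT against vehicle (all 3124). They became 5 of 10 with 1 bright probe set a gene (all 2056) and 5 after median centring (all 2252). With only the arrays of the groups compared they were 5 (all 1688), and with 1 array left out 6 to 10. For DHT with 1 µM against DHT, 3 (all 597) became 0 with only the groups compared (all 203), and 2 to 3 with 1 array left out. For DHT with 10 µM against DHT, 3 (all 1469) became 7 of 24 among bright probe sets (all 1720). The added calls were PRKAA1 209799_at, both PRKAB1 probe sets and PRKAG2 222582_at, and the range with 1 array left out was 3 to 7. For 1 µM against vehicle, 1 (all 438) became 2 of 24 among bright probe sets (all 982) and 2 after quantile normalization (all 614). It became 0 after centring (all 54), with no trend (all 19) and with only the groups compared (all 0). The range with 1 array left out was 0 to 2. For 10 µM against vehicle, 0 (all 68) became 1 without the 2 arrays of high ACTB ratio (all 328), and 0 to 0 with 1 array left out. For DHT beside 1 µM, 7 (all 3275) became 4 of 10 with 1 bright probe set a gene (all 2410) and 4 after centring (all 3590). With only the groups compared it was 3 (all 811), and the range with 1 array left out was 3 to 9. For DHT beside 10 µM, 0 (all 336) became 1 of 24 among bright probe sets (all 433) and 2 with only the groups compared (all 334). Without the 2 arrays it was 3 (all 775), and the range with 1 array left out was 0 to 1. For the difference of DHT effects at 1 µM, 2 (all 533) became 4 after quantile normalization (all 710). It was 1 with no trend (all 156) and 1 with only the groups compared (all 154), and the range was 1 to 3. At 10 µM, 4 (all 670) became 2 of 10 with 1 bright probe set a gene (all 638) and 1 after centring (all 327). It was 1 with no trend (all 329) and 2 with only the groups compared (all 623), and the range was 2 to 5. The dose step beside DHT and the differences within genes stayed at 0 to 0. With 1 array left out, the difference of CAMKK2 210787_s_at from 213812_s_at ran between -0.034 (without DHT replicate 1) and 0.76, and that of 207359_at between -0.36 and 0.043 (without vehicle replicate 1). The cause of these changes was not tested, beyond the fewer genes, arrays or groups in some of the fits.

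Among all probe sets called for DHT against vehicle, the share higher was 45.5% of 3124, and 59.2% of 2252 after centring. For DHT beside 1 µM it was 50.4% of 3275, and 82.5% of 3590 after centring. With the replicate block, 9 members were called in place of 8 for DHT against vehicle, beside 3257 of all probe sets. For DHT with 10 µM against DHT they were 4 in place of 3, beside 1545 of all. For the difference of DHT effects at 10 µM they were 5 in place of 4, beside 689 of all. The replicate block changed no call of the 34 single results. Only 5 of 18 arrays were most like an array of their own number in another group. Dim probe sets limit what can be read, with SEs up to 0.93 for PRKAA1 1555177_at.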
